A study of Mus musculus with 16 samples.

Results

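The colony-stimulating factors and their receptors were described in bulk RNA-seq of 16 orthotopic tumours grown from E0771-luciferase cells, a breast cancer line of the mouse in which a luciferase reporter is carried. The members were taken by name. They are the ligands Csf1, Il34, Csf2 and Csf3 and the receptor genes Csf1r, Csf2ra, Csf2rb and Csf3r, 8 of the 47311 annotated genes that held transcripts. All 8 passed the filter on low counts, which left 16154 genes to be tested. Every mouse was a female C57BL/6J on a high-fat diet, with 60% of its energy from fat, between 8 and 26 weeks of age. Each was given 250000 cells in Matrigel in mammary gland 4, in a strain that matches the line and has an intact immune system. Starting on day 3, 8 mice received anti-PD-1 antibody and 8 received an IgG2a isotype control, 200 ug into the peritoneum every 3 days until day 21. The comparison between these groups addresses how blocking PD-1, an inhibitory receptor of T cells, changes tumours of obese mice. The diet and the tumour line were common to both groups, and each tumour carried its own animal number.

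Colony-stimulating factors are secreted or membrane-held cytokines that drive the survival, growth and maturation of myeloid cells. Csf1 (M-CSF) and Il34 (interleukin-34) are unrelated in sequence but both bind Csf1r, the tyrosine kinase receptor that macrophages and monocytes depend on. Csf2 (GM-CSF) binds a specific alpha chain, Csf2ra, which signals through the common beta chain Csf2rb, and Csf3 (G-CSF) binds Csf3r, the receptor that directs neutrophil production and release. In tumours, Csf1 is best known for recruiting and sustaining macrophages, and Csf2 and Csf3 for expanding neutrophils and immature myeloid cells.

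Total estimated reads ran from 59036535 to 82591064 per tumour. In the tumour called IgG2a replicate 7, the TPM (a level scaled for transcript length and library size) of 6 adipocyte genes summed to 13271, against at most 318 in the other 15 tumours. The same tumour held 55581 TPM of erythroid genes against at most 1621 elsewhere, and 14542 TPM of macrophage genes against at most 6092. IgG2a replicate 3 held 27853 TPM of skeletal muscle genes against at most 174 elsewhere. In anti-PD-1 replicate 6, 38993 transcripts were detected, against 47997 to 55476 in the others. For the main results, values without these 3 tumours are also given. Epithelial and keratinocyte genes summed to 36.3 to 78.7 TPM in 15 tumours and 240 TPM in IgG2a replicate 7, with a mean of 42.6 TPM for the luminal keratin Krt8 but 3.33 TPM for Epcam and 1.63 TPM for Cdh1. In bulk tissue, fewer cells of a type and less RNA per cell cannot be told apart.

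The shared beta chain has a near copy in the mouse, Csf2rb2, which codes for the beta chain specific to interleukin-3 and lies next to Csf2rb on chromosome 15. The first 90 coding bases of both are shown because reads from such stretches are hard to assign to either gene. Capitals mark the positions where they differ, and 87 of the 90 bases are identical. The coordinates beside each name are those of the whole gene, not of the 90 coding bases.
Csf2rb, chr15:78325752-78353847, plus strand of GRCm38: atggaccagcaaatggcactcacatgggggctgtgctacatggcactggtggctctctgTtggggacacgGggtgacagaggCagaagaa
Csf2rb2, chr15:78282507-78305721, minus strand of GRCm38: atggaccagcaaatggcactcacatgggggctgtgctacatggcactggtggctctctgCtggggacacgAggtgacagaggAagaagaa
Over 2628 aligned coding bases the pair was 95.2% identical. Of the distinct 31-base words in the transcripts of Csf2rb, 19.7% also occurred in another gene, and 1369 of those shared words were found in Csf2rb2. The split of reads between these genes therefore depends on the authors' quantifier.

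Promoter windows around the RefSeq start were taken on GRCm38.p6, where 4 of the 8 members, Csf1, Csf2, Csf2ra and Csf3r, and Csf2rb2 had an entry. They were searched on both strands for GAGGAA, the core letters bound by the myeloid factor PU.1. The windows that held it belong to the receptor genes, and they are shown because the receptor levels are set beside those of myeloid genes in these results. Capitals mark the motif, which reads as TTCCTC where it lies on the opposite strand.
Csf2ra, chr19:61228369-61228668, minus strand: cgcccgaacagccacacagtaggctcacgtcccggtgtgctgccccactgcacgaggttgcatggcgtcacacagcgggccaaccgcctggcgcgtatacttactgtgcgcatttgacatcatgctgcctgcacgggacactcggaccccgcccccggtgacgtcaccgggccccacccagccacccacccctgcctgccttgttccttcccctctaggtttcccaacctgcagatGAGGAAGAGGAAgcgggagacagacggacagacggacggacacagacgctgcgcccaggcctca
Csf3r, chr4:126024409-126024708, plus strand: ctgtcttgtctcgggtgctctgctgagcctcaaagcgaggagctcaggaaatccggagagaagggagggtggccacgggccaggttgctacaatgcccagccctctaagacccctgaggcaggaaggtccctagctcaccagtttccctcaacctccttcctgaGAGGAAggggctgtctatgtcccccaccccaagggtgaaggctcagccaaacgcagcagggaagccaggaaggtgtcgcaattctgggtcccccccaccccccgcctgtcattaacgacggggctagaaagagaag
Csf2rb2, chr15:78305672-78305971, minus strand: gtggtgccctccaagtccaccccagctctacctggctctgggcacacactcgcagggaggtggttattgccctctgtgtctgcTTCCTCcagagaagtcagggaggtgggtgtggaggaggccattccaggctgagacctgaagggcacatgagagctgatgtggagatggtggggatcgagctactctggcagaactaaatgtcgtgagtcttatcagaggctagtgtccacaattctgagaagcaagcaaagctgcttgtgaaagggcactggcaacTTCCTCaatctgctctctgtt
In Csf2ra the motif began at -14 and again at -8 from the start, the copies lying end to end. A single match began at -86 in Csf3r. Csf2rb2 had matches on the opposite strand at -167 and at 29. No match to these letters was found in the windows of Csf1 or Csf2, the latter lying upstream of the GENCODE start of Csf2 and not reaching it. Of all 32851 promoter windows of this length, 28.3% held the motif, so its presence describes these windows and identifies no binding.

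Levels between genes were compared as TPM summed over protein-coding transcripts. Csf1 was the most abundant member, with a mean of 81.8 ± 25.97 TPM (SD, n = 16). Its receptor Csf1r followed at 40.4 ± 39.9 TPM. Csf2ra stood at 24.3 ± 24.1 TPM and Il34 at 22.1 ± 5.92 TPM. The beta chain Csf2rb was lower, at 10.96 ± 8.68 TPM, next to Csf3 at 9.98 ± 9.83 TPM and Csf3r at 9.38 ± 4.50 TPM. Csf2 was the least abundant, at 2.73 ± 2.40 TPM.

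Ordered within tumours, Csf1 exceeded Csf1r in 15 of 16 tumours and Csf2ra exceeded Csf2rb in 16 of 16. Csf3 was above Csf2 in 14 of 16. The neighbours between them were not separated beyond their spread. Csf1r was above Il34 in 11 tumours, Il34 above Csf2ra in 11, Csf2rb above Csf3r in 10 and Csf3r above Csf3 in 9. The place of Il34 turned on which transcripts were summed. With all its transcripts it came to 52.4 ± 11.5 TPM, in the second place by median, because short transcripts with no coding sequence, of 515 and 675 bases, added 9.98 and 19.8 TPM on average.

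**Figure D1:**
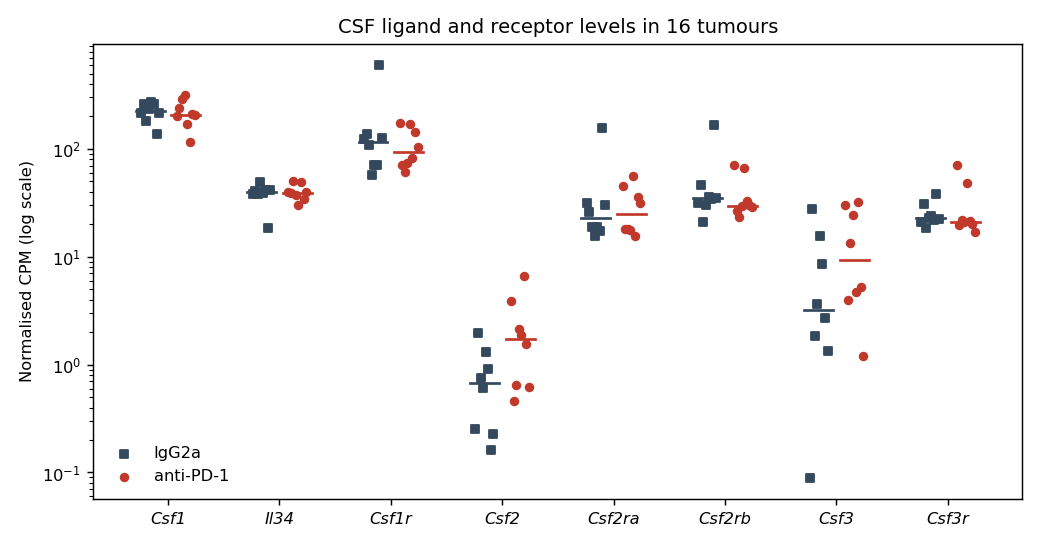
Level of each member in every tumour, as CPM (counts scaled to the library's total as adjusted by TMM) on a log axis. Anti-PD-1 and IgG2a tumours are side by side, with a line at each group's median. Csf1 and Il34 lie in narrow bands, Csf3 spans from 0.0884 to 32.5 CPM, and IgG2a replicate 7 stands above the rest for Csf1r, Csf2ra and Csf2rb.

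No member passed the test between the groups. With edgeR's quasi-likelihood test and Benjamini-Hochberg adjustment over 16154 genes, 0 of 8 members were called. So were 0% of all genes, with 0.434 as the lowest adjusted value. By unadjusted p under 0.05, 1 of 8 members was found, Csf2, which was higher with anti-PD-1. By that measure 3.47% of all genes were higher, 7.9% lower and 11.4% changed in either direction. Of the 8 members, 4 had a higher and 4 a lower estimate, with a median log2 fold change of 0.02 against -0.05 over all genes. Over all 16154 genes, 6962 estimates were higher and 9192 lower. Without the 3 tumours that stood apart, 6 of 8 estimates were higher and their median was 0.27, and no member was called by edgeR.

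Among the ligands, Csf1 (ENSMUSG00000014599, chr3:107741048-107760469, minus strand, GRCm38) ran from 116 to 317 CPM with anti-PD-1, with a median of 208. With IgG2a it ran from 138 to 275 CPM, with a median of 225. The ranges overlapped almost entirely, and both the highest and the lowest tumour, replicates 4 and 6, had received anti-PD-1. This gave a log2 fold change of -0.03 ± 0.18 (SE), with a 95% interval from -0.42 to 0.36 (edgeR adjusted p = 0.942), and its sign depended on single tumours. Over all tumours Csf1 varied 2.74-fold.

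Il34 (ENSMUSG00000031750, chr8:110741829-110805924, minus strand) was about as even, varying 2.77-fold. It ran from 30.3 to 50.6 CPM with a median of 39.1 with anti-PD-1. The IgG2a tumours ran from 18.3 to 49.0 CPM with a median of 39.6. IgG2a replicate 7 was the lowest, and the next lowest tumour, anti-PD-1 replicate 5, was at 30.3 CPM. Its log2 fold change was 0.07 ± 0.16, interval -0.27 to 0.40 (edgeR adjusted p = 0.853), and -0.11 ± 0.10 without the 3 tumours. These values include the transcripts with no coding sequence. From protein-coding transcripts alone, Il34 averaged 20.5 ± 4.95 TPM with anti-PD-1 and 23.7 ± 6.69 TPM with IgG2a (SD), a difference that was not tested.

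Csf2 (ENSMUSG00000018916, chr11:54247271-54249667, minus strand) was scarce, with 10 to 432 estimated reads per tumour. It ran from 0.456 to 6.70 CPM with anti-PD-1, with a median of 1.72. Its IgG2a values ran from 0.161 to 1.95 CPM, with a median of 0.678. The groups overlapped: 5 of 8 anti-PD-1 tumours lay above the IgG2a median, and replicates 6, 1 and 4 of the anti-PD-1 group lay above every IgG2a tumour. The log2 fold change of 1.53 ± 0.62, interval 0.22 to 2.85, had an unadjusted p of 0.0246 and an adjusted p of 0.434 with edgeR. An exact two-sided permutation test of the log2 CPM gave a difference of 1.39 and p = 0.0488. Leaving out anti-PD-1 replicate 6 lowered the fold change to 1.05, with an unadjusted p of 0.0885 by edgeR. Leaving out all 3 tumours lowered it to 0.87 ± 0.58, with an unadjusted p of 0.154 by edgeR.

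Csf3 (ENSMUSG00000038067, chr11:98701263-98703629, plus strand) was the most variable member, spanning 367-fold from 6 estimated reads in IgG2a replicate 1 (0.0884 CPM) to 32.5 CPM in anti-PD-1 replicate 6. It ran from 1.20 to 32.5 CPM with a median of 9.35 with anti-PD-1. With IgG2a it ran from 0.0884 to 27.7 CPM with a median of 3.19. The ranges overlapped, although 7 of 8 anti-PD-1 tumours lay above the IgG2a median. A log2 fold change of 0.91 ± 0.84 was found, interval -0.87 to 2.69 (edgeR adjusted p = 0.600), and the exact permutation test gave a log2 difference of 1.47 with p = 0.184. The fitted value was 0.33 ± 0.91 without the 3 tumours and 1.58 without IgG2a replicate 2, the highest of its group (edgeR adjusted p = 0.887 and 0.485). Spread within each group was larger than the difference between them.

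Beside Csf2 and Csf3, the 17 tested neutrophil genes had 15 higher and 2 lower estimates with anti-PD-1, with 0 called and a median log2 fold change of 0.73. Over all tested genes 6962 estimates were higher and 9192 lower. Without the 3 tumours that stood apart, 13 of 17 neutrophil genes were higher, with a median of 0.83. The summed level of the neutrophil list was 149 to 1150 TPM with anti-PD-1, median 289, and 79.2 to 518 TPM with IgG2a, median 259. The value of 1150 TPM was that of anti-PD-1 replicate 1 alone, and the next highest tumour was IgG2a replicate 7 at 518 TPM. The list's smallest p belonged to Clec4d, a C-type lectin of myeloid cells, and Cxcr1, a receptor for neutrophil-attracting chemokines, with log2 fold changes of 1.20 ± 0.42 and 1.99 ± 0.72 (edgeR adjusted p = 0.434 for both). Cxcr1 was near the floor, at 0.42 ± 0.35 CPM with anti-PD-1 and 0.11 ± 0.09 CPM with IgG2a. By an unadjusted edgeR p under 0.05, 3 genes of the list were higher and 1 was lower, against 3.47% and 7.9% of all tested genes. Of the genes of immature neutrophils too low to test, Mpo was at 0 in 7 tumours, Camp in 9, Elane in 4, and Ngp and Fcnb in 3 each. Ltf and Cebpe, also in the neutrophil list, were tested and averaged 15.6 and 0.30 TPM. Their log2 fold changes were -1.89 ± 1.20 and 0.21 ± 0.49, and 1.39 and -0.06 without the 3 tumours. The part of the neutrophil genes in the Csf2 and Csf3 values was not tested.

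Of the receptors, Csf1r (ENSMUSG00000024621, chr18:61100598-61132149, plus strand) ran from 61.2 to 173 CPM with a median of 93.5 with anti-PD-1. With IgG2a it ran from 57.2 to 605 CPM with a median of 116. IgG2a replicate 7, at 605 CPM, stood alone, and the next tumour was anti-PD-1 replicate 1 at 173 CPM. The log2 fold change was -0.56 ± 0.44, interval -1.50 to 0.37 (edgeR adjusted p = 0.541). It was 0.14 without that tumour and 0.21 ± 0.29 without the 3 tumours, so its sign rested on 1 library.

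The alpha chain Csf2ra (ENSMUSG00000059326, chr19:61223957-61228429, minus strand) ran from 15.7 to 56.3 CPM with anti-PD-1, median 24.8. With IgG2a it ran from 15.5 to 158 CPM, median 22.6, with IgG2a replicate 7 again far above the rest. The log2 fold change was -0.41 ± 0.48, interval -1.43 to 0.61 (edgeR adjusted p = 0.682), and 0.44 ± 0.29 without the 3 tumours.

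The beta chain Csf2rb (ENSMUSG00000071713) ran from 23.6 to 71.0 CPM with anti-PD-1, median 29.8. IgG2a tumours ran from 21.1 to 167 CPM, median 34.7. The 3 highest tumours were IgG2a replicate 7 and anti-PD-1 replicates 1 and 5, and the other 13 lay between 21.1 and 46.8 CPM. Its log2 fold change was -0.37 ± 0.40, interval -1.21 to 0.47 (edgeR adjusted p = 0.650), and 0.15 ± 0.26 without the 3 tumours. Csf2rb2 (ENSMUSG00000071714) followed it closely: the ratio of its TPM to that of Csf2rb stayed between 0.313 and 0.602, and its log2 fold change was -0.40 ± 0.49 (edgeR adjusted p = 0.692).

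The macrophage genes moved with the same library. Of 17 tested, 4 had a higher and 13 a lower estimate with anti-PD-1, against 6962 and 9192 over all tested genes. Of the 17, 0 were called, and their median log2 fold change was -0.23. The smallest p belonged to Cd163 and Siglec1, surface receptors of tissue-resident macrophages, with log2 fold changes of -3.34 ± 1.13 and -1.51 ± 0.55 (edgeR adjusted p = 0.434 for both), which came to 0.13 and -0.43 without the 3 tumours. Without them 15 of 17 macrophage genes were higher, with a median of 0.36. Their summed level was 1548 to 6092 TPM with anti-PD-1 and 1367 to 14542 TPM with IgG2a, and Vsig4, a marker of resident macrophages, was at 0 in 6 tumours. Adipocyte genes summed to 63.8 to 264 TPM and 64.2 to 13271 TPM. Their part in the Csf1r, Csf2ra and Csf2rb values was not tested.

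Csf3r (ENSMUSG00000028859, chr4:126024550-126044440, plus strand) ran from 17.1 to 71.2 CPM with anti-PD-1, median 21.2. With IgG2a it ran from 18.6 to 38.2 CPM, median 22.7. Anti-PD-1 replicates 1 and 5 lay above every IgG2a tumour, while only 2 of 8 anti-PD-1 tumours exceeded the IgG2a median. For Csf3r the log2 fold change was 0.27 ± 0.29, interval -0.34 to 0.88 (edgeR adjusted p = 0.651), and -0.045 without anti-PD-1 replicate 1.

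**Figure D2:**
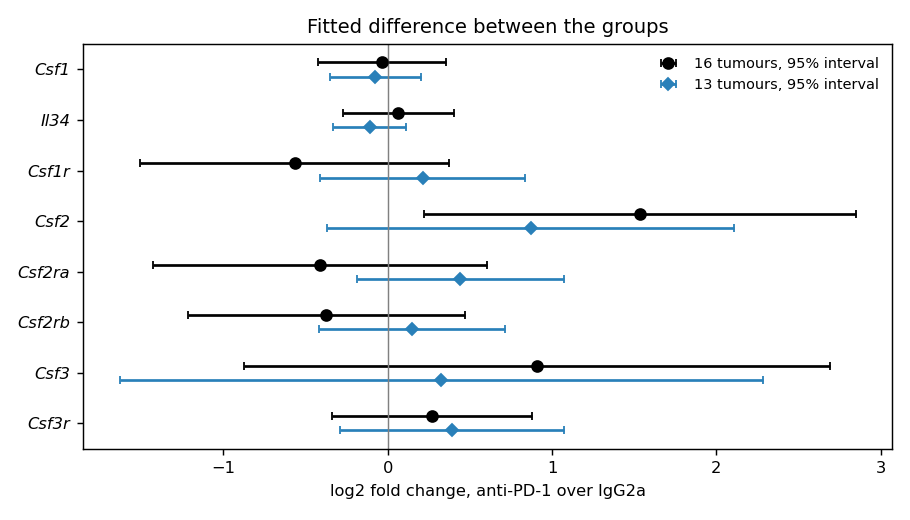
Log2 fold change of each member, anti-PD-1 over IgG2a, from edgeR with its 95% interval, for all 16 tumours and for the 13 left after the 3 tumours that stood apart were removed. Every interval spans 0 except that of Csf2 over 16 tumours, and Csf1r, Csf2ra and Csf2rb cross from negative to positive estimates when the 3 tumours are left out.

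The other genes of the pathway are given by list. Of the related beta-chain genes, Csf2rb2 and Il3ra, the alpha chain of the interleukin-3 receptor, were tested and both had lower estimates, while Il3, Il5 and Il5ra were too low to test, Il3 being at 0 in 15 tumours. Il3ra had a log2 fold change of -0.11 ± 0.58 (edgeR adjusted p = 0.933). Sdc1, the syndecan described as another binding partner of interleukin-34, was abundant, at 398 ± 37.7 CPM with anti-PD-1 and 386 ± 111 CPM with IgG2a (n = 8 tumours each, SD), a log2 fold change of 0.05 ± 0.17. Ptprz1, a phosphatase that also binds it, was too low to test.

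Of 14 genes that carry signals from these receptors, 0 were called, 1 had a higher and 13 a lower estimate, with a median log2 fold change of -0.22. Among all tested genes, lower estimates were also the more frequent, 9192 against 6962. Without the 3 tumours 5 of 14 were higher and the median was -0.06. Those with the smallest p were Stat5b and Stat5a, the transcription factors activated by Csf2 and Csf3 receptors, and Cbl, the ubiquitin ligase that ends Csf1r signalling. Stat5b stood at 79.2 ± 7.83 CPM with anti-PD-1 and 94.6 ± 9.41 CPM with IgG2a. Its log2 fold change was -0.26 ± 0.08 (edgeR adjusted p = 0.434). It was the only gene of the list at an unadjusted p under 0.05, a measure met by 11.4% of all tested genes in either direction. The values of Stat5a and Cbl were -0.33 ± 0.16 and -0.36 ± 0.18.

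Of 7 STAT targets and feedback genes, 0 were called and the median was 0.17. A higher estimate was found for 5 and a lower for 2, against 6962 and 9192 over all tested genes. Bcl2l1, a survival gene, had a log2 fold change of 0.28 ± 0.16. Socs1 and Socs3, which switch cytokine signalling off, had values of 0.37 ± 0.23 and 0.26 ± 0.26. None passed the test.

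Cytokines and receptors known to induce Csf2 and Csf3 were higher in estimate for 6 of 7 tested genes, with 0 called and a median log2 fold change of 0.78. Among all tested genes, 6962 estimates were higher and 9192 lower. Tnf was at 14.03 ± 7.17 CPM with anti-PD-1 and 8.00 ± 2.17 CPM with IgG2a, a log2 fold change of 0.81 ± 0.26. Il1b had a value of 1.01 ± 0.41 and Tlr4, the endotoxin receptor, -0.60 ± 0.27. All 3 had an unadjusted p under 0.05 and an adjusted p of 0.434 by edgeR. By that unadjusted measure 3.47% of all tested genes were higher, 7.9% lower and 11.4% changed in either direction. Without the 3 tumours that stood apart, Tnf, Il1b and Tlr4 came to 0.71, 0.65 and -0.21. The list then still had 6 of 7 estimates higher, with a median of 0.40. Il17a and Il17f were too low to test, with at most 26 reads in any tumour.

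The relation of each member to macrophages and neutrophils was measured across tumours against 2 scores, each the mean log2 CPM of 17 tested genes that include no member. The macrophage score averaged 6.37 ± 0.50 with anti-PD-1 and 6.48 ± 0.97 with IgG2a (n = 8 tumours each, SD, exact permutation p = 0.828). The neutrophil score averaged 2.02 ± 0.85 and 1.47 ± 0.78 (exact permutation p = 0.210). By level, the macrophage list was led by Apoe, Lyz2 and C1qa and the neutrophil list by S100a9, S100a8 and Clec4d. The scores were weakly related to each other (r = 0.35, permutation p = 0.181; rho = 0.29, permutation p = 0.284). Of 16 relations of a member with a score, 9 passed an adjusted p of 0.05 by Pearson's r and 7 by both r and Spearman's rho, and 5 of the 7 still had p under 0.05 without the 2 tumours farthest from the median score.

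Csf1r followed the macrophage score most closely. Pearson's r was 0.97 and rho 0.96, both with the smallest permutation p that 100000 resamples give, 1e-05 (adjusted p = 0.00016). Without IgG2a replicates 4 and 7, the 2 tumours farthest from the median, r was 0.92. It was 0.96 within the anti-PD-1 group (exact permutation p = 0.0002) and 0.98 within the IgG2a group (exact permutation p = 0.0014). Within the 6 tumours with the lower animal numbers it was 0.92, and within the 10 with the higher it was 0.98, the numbers falling into these ranges with a gap between them. The labels do not say whether the ranges mark a batch. The relation to the neutrophil score was not shown (r = 0.28, adjusted permutation p = 0.380; rho = 0.25).

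Csf2ra had the next closest relation to the macrophage score, with r = 0.91 (permutation p = 3e-05, adjusted p = 0.00024) and rho = 0.81 (permutation p = 0.00033). It was 0.76 without the 2 farthest tumours, 0.87 and 0.93 within the anti-PD-1 and IgG2a groups, and 0.69 and 0.95 within the lower and higher animal numbers. The common chain Csf2rb was related to both scores by r alone. Against macrophage genes r was 0.81 (adjusted permutation p = 0.00277) but rho 0.47 (adjusted permutation p = 0.123), and r came to 0.55 without the 2 farthest tumours and to 0.54 without IgG2a replicate 7 (adjusted permutation p = 0.0656). Within the lower and higher animal numbers that r was 0.58 and 0.90. Against neutrophil genes r was 0.56 (adjusted permutation p = 0.0493) and rho 0.53 (adjusted permutation p = 0.0753), with r at 0.68 and 0.53 within the lower and higher animal numbers.

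Both Csf1r ligands ran the other way, being lower where macrophage genes were higher. For Csf1, r was -0.63 (permutation p = 0.0105, adjusted p = 0.0211) and rho -0.69 (permutation p = 0.00373). It was -0.54 without the 2 farthest tumours (permutation p = 0.041), -0.49 and -0.88 within the anti-PD-1 and IgG2a groups, and -0.75 and -0.62 within the lower and higher animal numbers. The relation of Csf1 did not pass on the log2 TPM scale (r = -0.36, adjusted permutation p = 0.259) or without IgG2a replicate 7 (r = -0.51, adjusted permutation p = 0.0729). For Il34, r was -0.85 (permutation p = 0.00047, adjusted p = 0.00157) and rho -0.59 (permutation p = 0.0196, adjusted p = 0.0448). Without the 2 farthest tumours r was -0.51 (permutation p = 0.0622), so that the relation of Il34 rested in part on those tumours. It was -0.61 and -0.93 within the anti-PD-1 and IgG2a groups and -0.56 and -0.91 within the lower and higher animal numbers. Which cells of the tumours made Csf1 and Il34 was not measured.

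Csf3r and Csf3 followed the neutrophil score, while the relation of Csf2 to it was less stable. For Csf3r, r was 0.76 (permutation p = 0.00049, adjusted p = 0.00157) and rho 0.70 (permutation p = 0.00355). It was 0.70 without anti-PD-1 replicate 1 and IgG2a replicate 1, the tumours farthest from the median. Within the anti-PD-1 and IgG2a groups it was 0.87 and 0.66, and within the lower and higher animal numbers 0.85 and 0.66. For Csf3, r was 0.78 (permutation p = 0.00048, adjusted p = 0.00157) and rho 0.71 (permutation p = 0.00251), with 0.59 without those 2 tumours. Its r was 0.73 and 0.79 within the groups and 0.88 and 0.58 within the number ranges.

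Csf2 had r = 0.65 with the neutrophil score (permutation p = 0.00642, adjusted p = 0.0147) and rho = 0.63 (permutation p = 0.0101). Without the 2 farthest tumours r was 0.49 (permutation p = 0.0725), so the relation rested in part on them. It was 0.57 without anti-PD-1 replicate 1 alone (adjusted permutation p = 0.0513), 0.86 without IgG2a replicate 7, and 0.89 over the 13 tumours left when all 3 were removed. It was 0.79 within the anti-PD-1 group and 0.35 within the IgG2a group (exact permutation p = 0.0199 and 0.399). Within the lower and higher animal numbers it was 0.95 and 0.44 (permutation p = 0.00278 and 0.2). Neither Csf2 nor Csf3 showed a relation to macrophage genes, with r of -0.16 and -0.14 (adjusted permutation p = 0.595 for both; rho = 0.11 and -0.09).

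**Figure D3:**
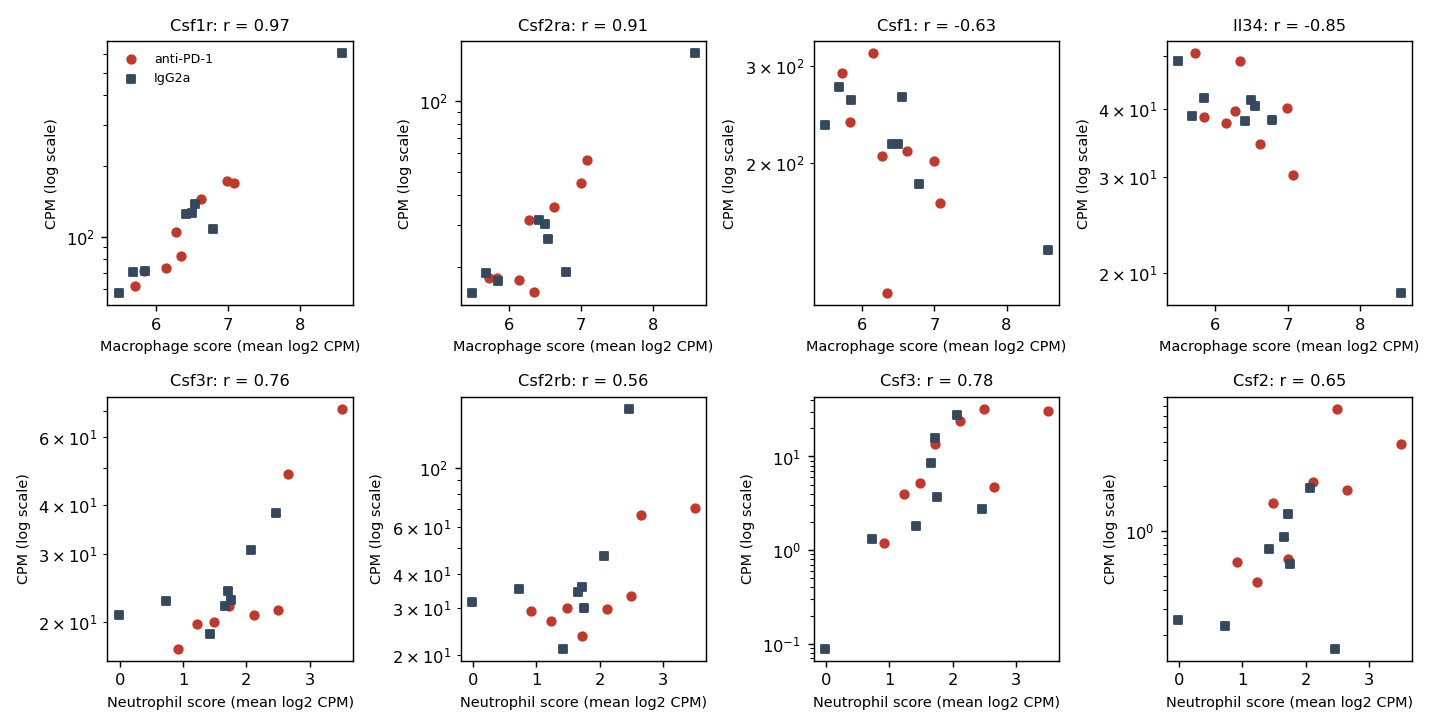
Each member's CPM (log axis) against the score it is set beside, the mean log2 CPM of macrophage or neutrophil genes, with 1 point per tumour coloured by group. Csf1r and Csf2ra rise with the macrophage score, Csf1 and Il34 fall with it, and Csf2, Csf3 and Csf3r rise with the neutrophil score.

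Among the members themselves, 28 pairs were compared, of which 8 passed an adjusted p of 0.05 by r and 4 by both r and rho. The receptors Csf1r and Csf2ra rose and fell together (r = 0.96, adjusted permutation p = 0.00028; rho = 0.87), with r = 0.89 without the 2 farthest tumours and 0.87 and 0.98 within the number ranges. Csf2rb and Csf3r formed a second receptor pair, with r = 0.78 (adjusted permutation p = 0.00932) and rho = 0.85 (adjusted permutation p = 0.00131). Its r was 0.89 without the 2 farthest tumours, 0.94 within each treatment group, and 0.94 and 0.82 within the number ranges. By rho it was 0.60 within the anti-PD-1 group and 0.86 within the IgG2a group.

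The ligands Csf2 and Csf3 were paired too, with r = 0.77 (adjusted permutation p = 0.00261) and rho = 0.84 (adjusted permutation p = 0.00126). That r was 0.70 without the 2 farthest tumours, 0.73 and 0.76 within the treatment groups, and 0.83 and 0.80 within the number ranges. The fourth pair, Il34 and Csf2ra, was inverse, with r = -0.87 (adjusted permutation p = 0.00174) and rho = -0.67 (adjusted permutation p = 0.0357). It came to -0.50 without the 2 farthest tumours (permutation p = 0.0666) and to -0.30 and -0.94 within the number ranges.

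No ligand had a positive relation to its own receptor that passed the test. Csf3 and Csf3r had r = 0.33 (adjusted permutation p = 0.348; rho = 0.40). Csf2 had r = -0.30 with Csf2ra and -0.07 with Csf2rb (adjusted permutation p = 0.408 and 0.806; rho = -0.16 and 0.15). Il34 and Csf1r had r = -0.87 (adjusted permutation p = 0.00174) and rho = -0.58 (adjusted permutation p = 0.0817), with r = -0.53 without the 2 farthest tumours and -0.55 and -0.93 within the number ranges. Csf1 and Csf1r had r = -0.55 and rho = -0.61 (adjusted permutation p = 0.0857 and 0.0749), and r was -0.68 without the 2 farthest tumours, with -0.54 and -0.56 within the number ranges.

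**Figure D4:**
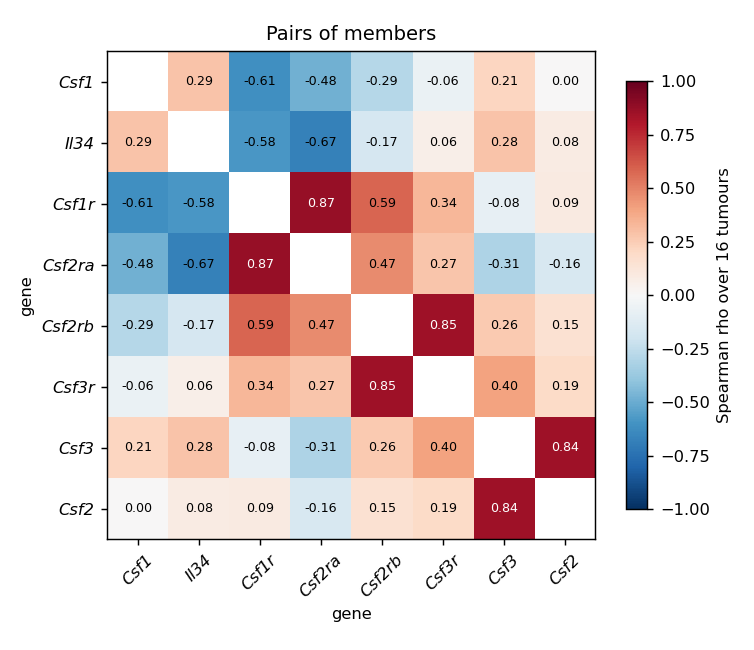
Spearman's rho over 16 tumours for each of the 28 pairs of members, as a colour from -1 to 1 with the value printed. Positive blocks join Csf1r with Csf2ra, Csf2rb with Csf3r, and Csf2 with Csf3, while Csf1 and Il34 are negative against Csf1r and Csf2ra.

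The 3 ligands Csf1, Csf2 and Csf3 were also set beside 7 inducers, 21 relations in all, of which 11 passed by r and 10 by both r and rho. Csf2 was closest to Il1b, the interleukin-1 made by activated myeloid cells (r = 0.87, adjusted permutation p = 0.00042; rho = 0.82). That r was 0.82 without the 2 farthest tumours, 0.86 and 0.81 within the treatment groups, and 0.86 and 0.93 within the number ranges. Csf3 was closest to Il1a, the other interleukin-1 ligand (r = 0.83, adjusted permutation p = 0.00147; rho = 0.88), with r = 0.77 without the 2 farthest tumours, 0.76 and 0.92 within the treatment groups, and 0.87 and 0.75 within the number ranges. Il6 had r = 0.75 with Csf2 and 0.72 with Csf3 (adjusted permutation p = 0.0042 and 0.00504), with rho of 0.67 and 0.75. For Tnf, r was 0.74 and 0.60 (adjusted permutation p = 0.0042 and 0.0348) and rho 0.75 and 0.74. Without the 2 farthest tumours, r of Tnf with Csf3 was 0.46. Csf2 and Il1a had r = 0.72 and rho = 0.80, and Csf3 and Il1b r = 0.69 and rho = 0.84 (adjusted permutation p for r = 0.00504 and 0.00953). Il23a had r = 0.60 and rho = 0.60 with Csf2 (adjusted permutation p for r = 0.0226). Csf2 was inversely related to Tlr4 by r alone (r = -0.70, adjusted permutation p = 0.00504; rho = -0.47, adjusted permutation p = 0.127), with r = -0.33 without the 2 farthest tumours and -0.02 and -0.87 within the number ranges.

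By contrast, Csf1 had no positive relation to any of the 7 that passed, and its r with Il1b was -0.08 over all tumours (adjusted permutation p = 0.845; rho = 0.07). That value joined r = 0.92 within the IgG2a group (exact permutation p = 0.000248) with r = -0.52 within the anti-PD-1 group (exact permutation p = 0.182), a difference that was not tested. Its relation to Tlr2, a receptor for bacterial lipoproteins, was inverse (r = -0.56, adjusted permutation p = 0.0459; rho = -0.65), with -0.65 without the 2 farthest tumours and -0.41 and -0.75 within the number ranges.

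The genes most like each member were taken by Spearman's rho over the 16 tumours among 11092 protein-coding genes, with no test. For Csf1r they were Ctsc and P2ry6, both at 0.97, and Aoah at 0.97. Ctsc codes for the lysosomal protease cathepsin C, and Aoah for an enzyme that inactivates endotoxin. For Csf2ra they were Evi2b, Was and Cd53, all at 0.95, the last being a tetraspanin of blood cells.

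Csf2rb was nearest to Rab11fip1 at 0.92, followed by Tbc1d9 and the chemokine receptor Cxcr4, both at 0.85. Csf3r was nearest to Csf2rb at 0.85, then Xylt1 and Arhgap26 at 0.84. For Csf2 the nearest were Tarm1 at 0.94, Clec4n at 0.93 and Mmp13 at 0.91, the first a myeloid cell receptor, the next the fungal receptor dectin-2 and the last a collagenase. For Csf3 they were Il1a and Zc3h12a at 0.88, then Lcn2 and Osm at 0.86. Lcn2 codes for an iron-binding protein of neutrophils and inflamed epithelium, and Zc3h12a for an RNase that degrades cytokine transcripts.

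The nearest genes of Csf1 included Emd at 0.95 and Bms1 at 0.93, which code for a nuclear envelope protein and a ribosome assembly factor. Il34 was nearest to Lpcat1 at 0.84, Cep131 at 0.83 and Spire2 at 0.81, the first an enzyme of phospholipid synthesis.

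Csf1 is made as a secreted protein and, from a shorter transcript, as a form held longer at the cell surface. Of its reads, the transcript of 4176 bases, which codes for 552 residues, held 56.8 ± 13.7% with anti-PD-1 and 61.6 ± 5.89% with IgG2a (n = 8 tumours each, SD, exact permutation p = 0.436). That of 3058 bases, which codes for 257 residues, held 35.3 ± 13.6% and 27.3 ± 6.22% (exact permutation p = 0.135, adjusted p = 0.203 over 3 transcripts). The transcript of 2097 bases, also coding for 552 residues, held 5.73 ± 1.49% and 8.29 ± 3.07% (exact permutation p = 0.0533, adjusted p = 0.160). No share passed the test, though that of the 2097-base transcript did without IgG2a replicate 1 (a difference of -3.22 percentage points, adjusted exact permutation p = 0.0345).

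In anti-PD-1 replicate 6 the balance was inverted. The 4176-base transcript held 26.2% of the reads there, against 49.8 to 67.4% in the other 15 tumours, and the 3058-base transcript 65.9% against 21.7 to 42.0%. Without that tumour the group difference was -0.48 percentage points for the 4176-base transcript, in place of -4.85, and 3.64 for the 3058-base transcript, in place of 8.02 (exact permutation p = 0.871 and 0.271). The Csf1r transcripts of that tumour also stood apart. All 5342 of its Csf1r reads were assigned to the Csf1r transcript of 4701 bases and 0 to that of 3870 bases, while in the other 15 tumours the longer held 4.01 to 34.1%, with a median of 23.7%. Both code for 977 residues.

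Exons of Csf1r share 873 bases with Hmgxb3, a gene on the opposite strand, and the library kit did not mark strand. Reads of both genes cannot be told apart there. Over the 15 tumours without anti-PD-1 replicate 6, the shorter transcript alone followed the macrophage score (r = 0.97, permutation p = 1e-05; rho = 0.95). The longer alone did not (r = 0.32, permutation p = 0.253; rho = 0.43), and the sum of both had r = 0.98. Il34 and Csf2 also overlap antisense genes, over 22 and 75 bases and over 96 bases. Of the 31-base words of Csf3r, 23.1% occur in another gene, chiefly AC105061.2, so a part of its reads could be assigned elsewhere.

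**Figure D5:**
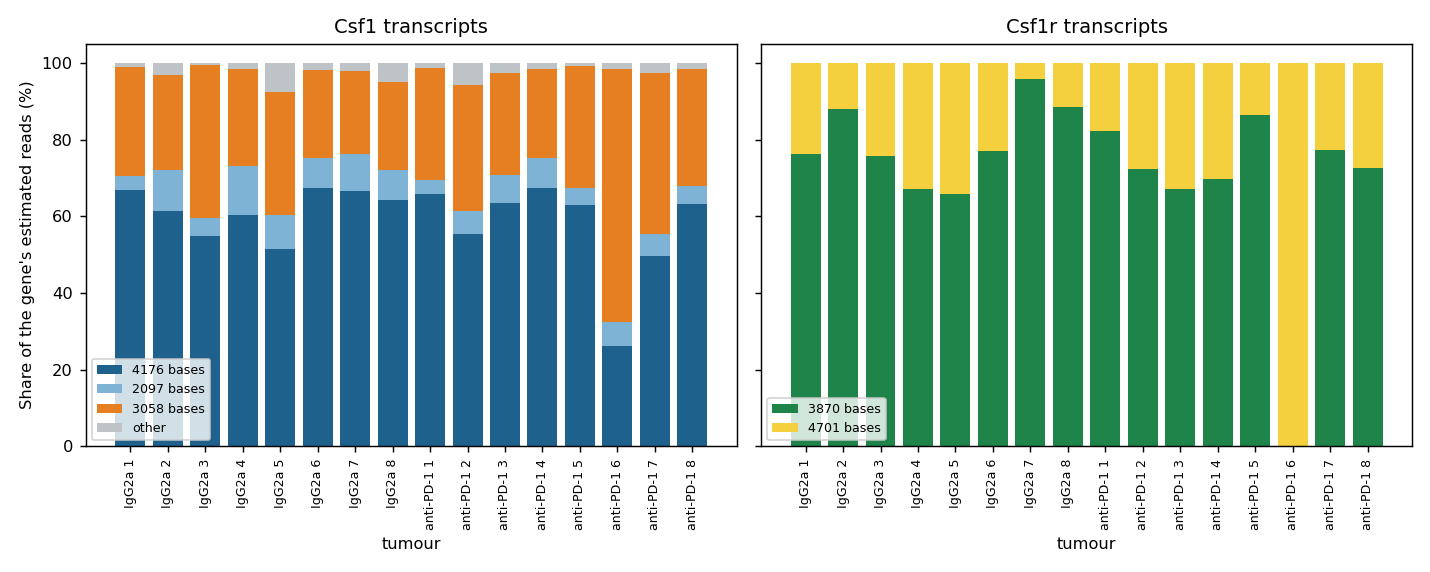
Share of the estimated reads of Csf1 and of Csf1r held by each annotated transcript, as stacked bars from 0 to 100% with 1 bar per tumour. Anti-PD-1 replicate 6 has 65.9% of its Csf1 reads on the 3058-base transcript and 100% of its Csf1r reads on the 4701-base transcript, unlike the other 15 tumours.

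The balance of the ligands of Csf1r was measured as the log2 ratio of Csf1 to Il34 in TPM. From protein-coding transcripts it was 1.85 ± 0.34 with anti-PD-1 and 1.85 ± 0.22 with IgG2a (n = 8 tumours each, SD), a difference of 0.0054 (exact permutation p = 0.971). Csf1 was the more abundant in 16 of 16 tumours, with a median ratio of 3.61. With all transcripts the ratio was 0.47 ± 0.65 and 0.76 ± 0.34 (exact permutation p = 0.312), and Csf1 was the more abundant in 15 of 16, the exception being anti-PD-1 replicate 6. That difference was -0.29, and -0.082 without this tumour (exact permutation p = 0.625).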

How the data were processed

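Total RNA of 16 tumours was extracted on columns and used where its integrity number was above 5, per the labels' protocols. Oligo-dT beads selected poly(A) RNA, and the kit was non-directional. The deposited tables give estimated counts per transcript, which can be fractional, and the authors' TPM, per the file headers. GRCm38, edgeR and limma are named in the submitters' processing notes; the quantifier is not given in the sources used here. Identifiers matched GENCODE vM21 for 114200 of 115088 transcripts, and the estimated counts of a gene's transcripts were added and rounded. After filterByExpr (minimum count 10), 16154 genes were scaled by TMM and tested in R 4.3.3 with edgeR 4.0.16 (robust quasi-likelihood), adjusting over all of them by Benjamini-Hochberg at 0.05. Scores and correlations used log2 CPM (prior count 2) and 100000 permutations, or all pairings within groups of up to 8, adjusted within families of 16, 28 and 21 relations. Differences of single values between groups used all 12870 assignments (smallest p 0.0001554). The ratio of Csf1 to Il34 had a pseudocount of 0.1. Alternatives were RLE and upper-quartile scaling, DESeq2 1.42.0, limma-voom, other filters, a length offset, animal-number ranges and leaving out each tumour. The members, lists and rules were chosen with earlier results of these data known. Named genes are the members, Csf2rb2, the 3 of smallest p in each pathway list, the 3 of highest TPM and 2 of smallest p in the macrophage and neutrophil lists, and the 3 most like each member by rho, ties included, of which some are not reported here. List genes too low to test, Ltf, Cebpe, epithelial genes and the inducers named with correlations were picked after their values were seen. Replicate numbers follow accession order and pair no samples.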

Additional observations from a re-analysis of the deposited data

Results flagged for a closer look

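A tumour was singled out where its gap to the nearest of its group, divided by the group's range, was above Dixon's 95% critical value. Of 30 groups of values tested, 9 held such a tumour, each time IgG2a replicate 7 or anti-PD-1 replicate 6, which had already been set apart. Many of these values depend on each other, so their number cannot be set against a chance rate. In log2 CPM, IgG2a replicate 7 was the lowest of its group for Il34 (gap over range 0.741) and the highest for Csf1r (0.626), Csf2ra (0.693), Csf2rb (0.615) and Csf2rb2 (0.804). The same tumour was the highest for the macrophage score (0.578). Anti-PD-1 replicate 6 was the lowest of its group for the log2 ratio of Csf1 to Il34 over all transcripts (0.653) and for the share of Csf1 reads on its 4176-base transcript (0.572). It was the highest for the share on the 3058-base transcript (0.559).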

How the results depend on the processing

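No member was called in any of 28 alternatives to the edgeR fit, and no gene was called in 27 of them, while DESeq2 called 4 genes. The log2 fold change of Csf2 stayed positive, from 0.40 with limma-voom quality weights to 2.002 in the higher animal numbers, with an unadjusted p above 0.05 for those weights, for the lower animal numbers, and where anti-PD-1 replicate 6 or all 3 tumours were left out. Quality weights turned the sign of Il34 (-0.080), Csf1r (0.11), Csf2ra (0.32), Csf3 (-0.15) and Csf3r (-0.063), and DESeq2 that of Csf2rb (0.21) and Csf2rb2 (0.39). Leaving out 1 tumour at a time, log2 fold changes ran from -0.13 to 0.062 for Csf1, -0.038 to 0.12 for Il34, -0.69 to 0.14 for Csf1r, -0.61 to 0.39 for Csf2ra, -0.55 to 0.21 for Csf2rb, -0.66 to 0.38 for Csf2rb2, 0.63 to 1.58 for Csf3 and -0.045 to 0.38 for Csf3r. The turned value was that without IgG2a replicate 7 for Il34, Csf1r, Csf2ra, Csf2rb and Csf2rb2, and without anti-PD-1 replicate 1 for Csf3r. Csf1 turned without anti-PD-1 replicates 5 or 6 or IgG2a replicates 2, 5 or 6. With the 3 tumours left out, Il34, Csf1r, Csf2ra, Csf2rb and Csf2rb2 were at -0.11, 0.21, 0.44, 0.15 and 0.40. In the lower animal numbers Csf1, Csf2ra, Csf2rb and Csf2rb2 were at 0.14, 0.085, 0.30 and 0.41, and in the higher Csf3r was at -0.022. The cause was not tested. By the same single omissions, r ran from -0.26 to 0.32 for Csf2 with macrophage genes, which was 0.40 without the 3 tumours, and from -0.27 to 0.0096 for Il34 with neutrophil genes. The relation of Csf2rb to neutrophil genes lost its adjusted p of 0.05 in 13 of 19 alternatives. So did Csf1 with macrophage genes on the log2 TPM scale (r = -0.36) and without IgG2a replicate 7 (-0.51), Csf2rb with macrophage genes without IgG2a replicate 7 (0.54) and Csf2 with neutrophil genes without anti-PD-1 replicate 1 (0.57). The longer Csf1r transcript alone had r = 0.32 with macrophage genes. The log2 ratio of Csf1 to Il34 differed by 0.0054 with protein-coding transcripts. The share of the 2097-base Csf1 transcript differed by -3.22 to -1.91 percentage points by single omissions, passing the threshold without IgG2a replicate 1. Animal-number ranges, protein-coding transcripts, the pairs, the inducers, the exact test of each member and single Csf1r transcripts were chosen after seeing the data. No paired analysis was possible because the labels number no replicates, and the numbers used here follow accession order. Depth limits Csf2 and Csf3, which had as few as 10 and 6 reads in a tumour.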
